A study of Mus musculus with 2 samples.

Results

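Of the 16560 barcodes in the single-cell libraries of mouse eye organoids, 1752 carried more than 26000 unique molecular identifiers (UMIs), and these barcodes, chosen by their UMI total alone, are described here against the other barcodes of the same day. On day 6 they were 792 of 7446 barcodes (10.6%) and held 25.1% of all UMIs; on day 4 they were 960 of 9114 (10.5%) and held 25.7%. The organoids were differentiated from embryonic stem cells heterozygous for a GFP knock-in at Rax, an early eye field transcription factor, and were collected on culture day 6 or day 4. Both days share that line and genotype, the labels name no agent beside the culture day, and each day is 1 droplet library (10x Genomics 3′ chemistry, version 2) made from a pool of biological replicates. Limits on genes, UMIs and mitochondrial, ribosomal and haemoglobin shares taken from the methods left 6641 barcodes on day 6 and 8147 on day 4. The study gives more filtered cells than the tables hold barcodes on either day, so shares are of the deposited barcodes. With 1 library per day there is no replicate error and no test. Intervals in parentheses are exact 95% intervals that cover counting error only, and day and library cannot be told apart.

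In droplet sequencing a barcode stands for 1 droplet, and a UMI marks 1 captured RNA molecule, so the UMI total follows the RNA in the droplet and the efficiency of its capture. A droplet can hold a lot of RNA because a pair of cells shared it (a doublet), because the cell had copied its genome and approached mitosis, or because the cell was large. A doublet of unlike cells carries marker genes of both, a cell in G2 or M phase carries transcripts such as Top2a, Ccnb1 and Cdc20, and a large cell need show neither. A doublet of like cells leaves no marker pair.

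The UMI total chose these barcodes, so total UMIs and genes per barcode are a description of the rule. On day 6 the median was 32991 UMIs and 5180 genes over the limit, against 12507 UMIs and 3057 genes in the rest, a ratio of medians of 2.64. On day 4 it was 33586 UMIs and 5088 genes over the limit, against 11212 UMIs and 2718 genes in the rest, a ratio of 3.0. The highest totals were 82798 UMIs on day 6 and 91199 on day 4. The limit cut through a continuous range: the lowest total inside it was 26008 UMIs and the highest outside 25978 on day 6, and 26039 and 25998 on day 4. More than 5000 genes, the upper limit of the study's own filter, were found in 475 (60.0%) of the day 6 and 549 (57.2%) of the day 4 barcodes over the limit, and in 0 of the rest on either day. The 90th percentile of UMIs over all barcodes was 26487 on day 6 and 26699 on day 4.

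The labels call the cells retina progenitors of eye organoids. On day 6, 469 barcodes over the limit (59.2%, 55.7 to 62.7) carried eye genes after thinning to 5000 UMIs (at least 2 UMIs of Six6, Pax6, Rax and Lhx2 together), against 4005 of the rest (60.2%, 59.0 to 61.4). On day 4 the shares were 1.56% (15 of 960) over the limit and 1.08% (86 of 7971) in the rest, so these defining genes were nearly absent on that day. Thinning draws the same number of UMIs from every barcode without replacement, and 183 of the day 4 rest and 0 of the day 6 rest fell short of 5000 and were left out of thinned values. A total of 91 barcode sequences occurred in both libraries; 8 were over the limit on day 6, 5 on day 4 and 0 in both.

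A few barcodes show the range of contents. They are written as their 16-base 10x barcodes in lower case with no part marked, and were picked as the largest total or the largest co-detected count.

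day 6, most UMIs: cctaaagtcgcgccaa
day 6, Dppa5a with the most eye gene UMIs: ctgcctacatctccca
day 6, Dppa5a with the most Col4a1 UMIs: ggtgaagtcggtccga
day 4, most UMIs: ccactactcagagctt
day 4, Dppa5a with the most Col4a1 UMIs: actgtccagaactgta

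The first held 82798 UMIs with 37 of Pax6, 24 of Six6 and 1 of Dppa5a, so eye transcripts stood almost without Dppa5a. The second held 27929 UMIs with 37 of Dppa5a, 21 of Pax6, 7 of Lhx2, 6 of Rax and 3 of Six6, so pluripotency and eye transcripts stood together in it. Dppa5a encodes a KH-domain protein abundant in pluripotent cells, and Pax6 and Six6 encode transcription factors of the eye primordium. The third held 27977 UMIs with 47 of Dppa5a, 58 of Col4a1, 2 of Pax6 and 0 of Six6. Col4a1 encodes a basement membrane collagen chain that primitive endoderm makes in quantity. The largest day 4 barcode held 91199 UMIs with 4 of Dppa5a, 2 of Col4a1 and 0 of Pax6. The last held 31234 UMIs with 44 of Dppa5a, 70 of Col4a1 and 0 of Pax6, and 46 UMIs of the G2 and M phase list.

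At equal depth the barcodes over the limit held slightly more genes than the rest. Thinned to 5000 UMIs, the median barcode had 1797 genes (1789 to 1803) over the limit on day 6, against 1766 (1763 to 1769) in the rest, and 1721 genes (1716 to 1726) over the limit on day 4, against 1664 (1662 to 1668) in the rest. Against the deepest of the rest alone, those over 20000 UMIs, the gap was all but gone: their medians were 1801 genes on day 6 and 1712 on day 4. Mitochondrial transcripts took a median of 2.32% of UMIs over the limit on day 6, against 2.48% in the rest, and 3.05% over the limit on day 4, against 2.998% in the rest. Barcodes under 1% mitochondrial UMIs were rarer over the limit, 14 (1.77%) against 277 (4.16%) on day 6 and 2 (0.208%) against 468 (5.74%) on day 4. Among the rest over 20000 UMIs there were 9 (1.26%) on day 6 and 4 (0.533%) on day 4. On day 6 the share over the limit was thus no lower than in that group.

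Co-detection of Dppa5a, at 10 or more UMIs, with eye or endoderm markers was more frequent over the limit when counts were taken as deposited. On day 6, Dppa5a and Pax6 were found together in 62 barcodes over the limit (7.83%, 6.05 to 9.92), against 92 of the rest (1.38%, 1.12 to 1.69). Dppa5a and Six6 were found together in 25 (3.16%, 2.05 to 4.63) over the limit, against 32 (0.481%, 0.329 to 0.678) of the rest. For Dppa5a and Col4a1 the counts were 44 (5.56%, 4.06 to 7.39) over the limit and 192 (2.89%, 2.50 to 3.32) in the rest. On day 4, Dppa5a was found with Pax6 in 20 barcodes over the limit (2.08%, 1.28 to 3.20), against 37 (0.454%, 0.320 to 0.625) of the rest, and with Col4a1 in 49 (5.10%, 3.80 to 6.69), against 116 (1.42%, 1.18 to 1.70). Dppa5a with Six6 was found in 5 (0.521%, 0.169 to 1.21) over the limit and 18 (0.221%, 0.131 to 0.349) of the rest on day 4, and these intervals overlap. A deeper barcode passes a fixed UMI minimum more easily, however, and even single genes show it: Pax6 was detected in 88.4% of barcodes over the limit on day 6 and 76.7% of the rest, although its level relative to all UMIs was lower over the limit.

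**Figure D1:**
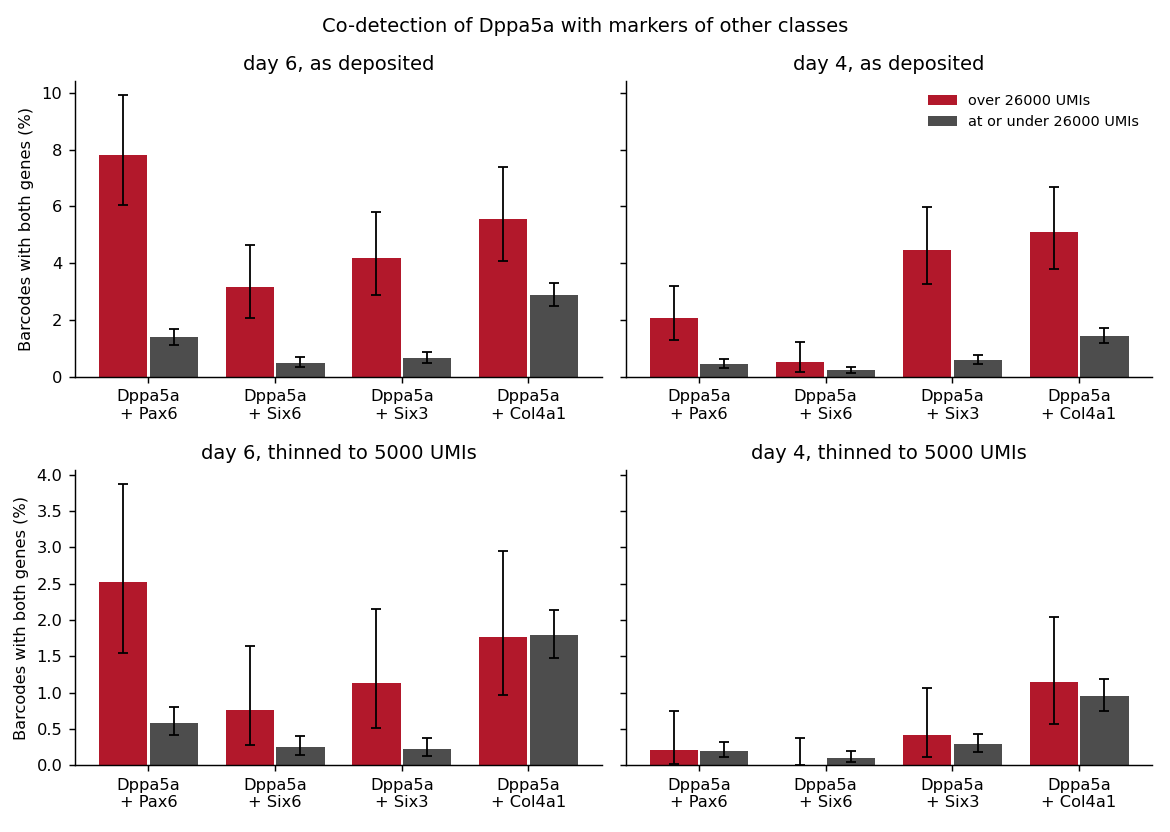
Percent of barcodes in which Dppa5a was found together with Pax6, Six6, Six3 or Col4a1, over 26000 UMIs (red) and at or under it (grey), with exact 95% intervals; Dppa5a needed 10 or more UMIs as deposited (top) and 4 or more after thinning (bottom), the other genes 1 or more. The gaps of the top panels narrow after thinning to 5000 UMIs, to 2.53% against 0.586% for Dppa5a with Pax6 and 1.14% against 0.225% for Dppa5a with Six3 on day 6, the only pairs of the bottom panels whose intervals do not overlap.

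At 5000 UMIs, with a Dppa5a minimum of 4, a smaller excess was left on day 6 for Dppa5a with Pax6 and with Six3. Dppa5a and Pax6 were found together in 20 barcodes over the limit (2.53%, 1.55 to 3.87), against 39 of the rest (0.586%, 0.417 to 0.800), a difference of 1.94 percentage points (0.940 to 3.30). Dppa5a was found with Six3, a homeobox factor of the anterior neural plate, in 9 (1.14%, 0.521 to 2.15) over the limit, against 15 (0.225%, 0.126 to 0.372), a difference of 0.911 points (0.278 to 1.93). For Six6 the counts were 6 (0.758%) over the limit and 17 (0.255%) in the rest, a difference of 0.502 points whose interval, -0.000893 to 1.39, includes 0. Col4a1 showed no excess with Dppa5a: 14 barcodes (1.77%) over the limit against 119 (1.79%) of the rest, a difference of -0.0207 points (-0.891 to 1.2).

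On day 4 the differences for the pairs with Dppa5a had intervals that include 0 at that depth. Dppa5a with Pax6 was found in 2 barcodes over the limit (0.208%) and 16 of the rest (0.201%), a difference of 0.0076 points (-0.214 to 0.557). With Col4a1 the counts were 11 (1.15%) over the limit and 76 (0.953%) in the rest, a difference of 0.192 points (-0.428 to 1.11). Dppa5a with Six6 was found in 0 of 960 over the limit, which allows a share of up to 0.312% (3 counts, with an exact upper bound of 0.384%), against 8 (0.100%) of the rest. With Six3 the counts were 4 (0.417%) over the limit and 23 (0.289%) in the rest, a difference of 0.128 points (-0.207 to 0.783), and thinned to 10000 UMIs, with a Dppa5a minimum of 10, they were 9 (0.938%) over the limit and 17 (0.346%) in the rest. Six6 with Col4a1, a pair without Dppa5a, was found at 5000 UMIs in 3 barcodes over the limit (0.312%) and 3 of the rest (0.0376%), a difference of 0.275 points (0.0165 to 0.874) that rests on 3 barcodes.

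The day 6 excess can be read within the Dppa5a-rich barcodes alone (4 or more UMIs of Dppa5a at 5000). Pax6 was found in 20 of 116 such barcodes over the limit (17.2%, 10.9 to 25.4), against 39 of 593 in the rest (6.58%, 4.72 to 8.88). In Dppa5a-poor barcodes it was found in 65.4% over the limit and 64.7% of the rest. In both groups the Dppa5a and Pax6 pair was rarer than the product of the single-gene shares, at 0.296 of it over the limit and 0.110 of it in the rest. By Dppa5a UMIs at 5000, 2 or more eye gene UMIs were held by 14.3% of the 28 barcodes over the limit with 10 to 19 Dppa5a UMIs, against 4.32% of the 139 in the rest, and by 8.33% of the 48 with 20 to 39, against 1.44% of the 208 in the rest. With 40 or more Dppa5a UMIs they were held by 0% of the 18 over the limit and 0% of the 108 in the rest. RNA free in the droplets gives low counts of the same kind; its part in these pairs was not tested.

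The levels in CPM (UMIs of a gene, summed over barcodes, per 1000000 UMIs of all genes) within Dppa5a-rich barcodes moved in the same sense on day 6. They come from the same barcodes as the pairs above, so they are no separate support. Pax6 stood at 35.8 CPM over the limit, against 23.9 CPM in the rest (ratio 1.5, 1.21 to 1.86), Six6 at 14.8 against 7.96 CPM (1.86, 1.30 to 2.66), and Six3 at 14.8 against 7.24 CPM (2.04, 1.41 to 2.96). Dppa5a itself was at 4780 CPM over the limit, against 4967 CPM in the rest (0.962, 0.946 to 0.978). Endoderm genes went the other way: Col4a1 was at 63.5 CPM over the limit, against 257 CPM in the rest (0.248, 0.218 to 0.281). Sox17, an endoderm transcription factor, was at 7.63 CPM over the limit, against 23.3 CPM (0.328, 0.219 to 0.476).

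The same overlap can be read from the other side in the day 6 barcodes with eye genes. Dppa5a was at 114 CPM in those over the limit, against 28.0 CPM in the rest (ratio 4.06, 3.79 to 4.34), while Six6 was at 123 against 178 CPM (0.692, 0.660 to 0.726) and Pax6 at 288 against 357 CPM (0.807, 0.782 to 0.832). The Dppa5a level rested largely on the 12 barcodes over the limit and 22 of the rest that were also Dppa5a-rich: without them it was 21.8 CPM (19.6 to 24.1) over the limit, against 15.02 CPM (14.0 to 16.1) in the rest. The levels of Six6 and Pax6 are partly set by the rule, which picks these barcodes by counts of those genes.

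Counting all marker pairs together, 42 barcodes over the limit on day 6 (5.30%, 3.85 to 7.10) carried markers of 2 classes at 5000 UMIs, against 167 of the rest (2.51%, 2.15 to 2.91), a difference of 2.79 points (1.28 to 4.63). The 6 classes were set by summed marker UMIs: Dppa5a, the eye genes, endoderm genes (Col4a1, Sox17 and others), neural crest genes (Sox10 and others), midbrain and hindbrain genes (Wnt1, En1 and others) and anterior neural genes (Six3, Hesx1, Lhx5), with eye and anterior neural genes together not counted as a pair. On day 4 it was 30 barcodes over the limit (3.13%, 2.12 to 4.43) against 170 of the rest (2.13%, 1.83 to 2.47), a difference of 0.992 points (-0.0709 to 2.33). The pair of Dppa5a with eye genes was found in 12 barcodes over the limit (1.52%, 0.785 to 2.63) and 22 of the rest (0.331%, 0.207 to 0.50) on day 6, and Dppa5a with anterior neural genes in 18 (2.27%, 1.35 to 3.57) and 43 (0.646%, 0.468 to 0.869). By contrast Dppa5a with endoderm genes was found in 5 (0.631%, 0.205 to 1.47) over the limit and 79 (1.19%, 0.941 to 1.48) of the rest. Without the anterior neural class, whose minimum was 1 UMI, the shares were 3.28% (26 barcodes) over the limit and 1.88% of the rest on day 6, and 0.312% (3 barcodes) over the limit and 0.514% of the rest on day 4. Between 20000 and 26000 UMIs on day 6, markers of 2 classes were found in 3.63% (2.39 to 5.28). Dppa5a with eye genes was found there in 5 barcodes (0.698%, 0.227 to 1.62). Both intervals overlap those over the limit. Above the limit that pair was found in 0 of 287 barcodes up to 30000 UMIs and 8 of 267 up to 40000. It was found in 0 of 136 up to 50000 and 4 of 102 beyond.

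Levels of division genes summed over barcodes were close over the limit and in the rest. The G2 and M phase list (54 genes, all measured) had a median log2 CPM ratio of 0.13 on day 6 and 0.09 on day 4, beside 0.02 and 0.04 over all genes at 10 CPM or more, and 0 of its 54 members passed 1.5-fold in either direction on either day. Against the rest over 20000 UMIs alone the medians turned to -0.14 on day 6 and -0.04 on day 4. Over all genes at that level, 0.219% were higher and 0.19% lower on day 6, and 0.879% higher and 0.5% lower on day 4. Cdk1, the kinase that drives entry into mitosis, was at 239 CPM over the limit, against 187 CPM in the rest on day 6 (1.28, 1.24 to 1.31), and at 152 against 138 CPM on day 4 (1.10, 1.07 to 1.14). In barcodes of 20000 to 26000 UMIs, just below the limit, Cdk1 was higher than over it, on day 6 with 263 CPM (255 to 271), and on day 4 with 163 (157 to 169). Gtse1, a mitotic spindle protein, was at 22.3 against 16.9 CPM on day 6 (1.32, 1.2 to 1.45). Ncapd2, a condensin subunit, was at 59.7 against 45.5 CPM on day 4 (1.31, 1.25 to 1.38).

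Among S phase genes 0 of 41 measured members passed on day 6 and 0 of 40 on day 4, with medians of -0.01 and 0.09, the first of which turned to 0.07 against the rest over 20000 UMIs. Over all genes at 10 CPM or more, 0.219% were higher and 0.19% lower on day 6, and 0.879% and 0.5% on day 4, so counts of 0 are close to those shares. Ung, which removes uracil from DNA, was at 130 CPM over the limit on day 4, against 98.5 CPM (1.32, 1.28 to 1.37), and Uhrf1, which carries DNA methylation through replication, at 74.6 against 58.0 CPM (1.29, 1.23 to 1.35). On day 6 Ccne2, the cyclin of S phase entry, was at 9.99 against 13.9 CPM (0.719, 0.631 to 0.817).

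The share of barcodes with high G2 and M phase counts, above the 90th percentile of the rest at 5000 UMIs, was 8.33% (66 barcodes, 6.50 to 10.5) over the limit on day 6, against 9.33% (621, 8.64 to 10.1) of the rest. On day 4 it was 6.56% (63, 5.08 to 8.32) over the limit, against 9.72% (775, 9.08 to 10.4), a difference of -3.16 points (-4.79 to -1.29). High S phase counts were rarer over the limit on day 6, at 3.41% (2.26 to 4.92) against 9.17% (8.49 to 9.89), and stood at 7.19% (5.63 to 9.01) against 7.90% (7.32 to 8.52) on day 4. On day 6 they were as rare just below the limit, at 4.33% (2.96 to 6.09) between 20000 and 26000 UMIs. Between 10000 and 15000 UMIs the share was 12.3% (11.1 to 13.6). The mean was nonetheless higher: 40.4 G2 and M phase UMIs per 5000 over the limit against 36.0 in the rest on day 6, and 34.7 against 32.6 on day 4. The spread between barcodes was narrower, with an SD of 13.7 over the limit against 16.8 in the rest on day 6, and 9.23 against 13.0 on day 4.

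**Figure D2:**
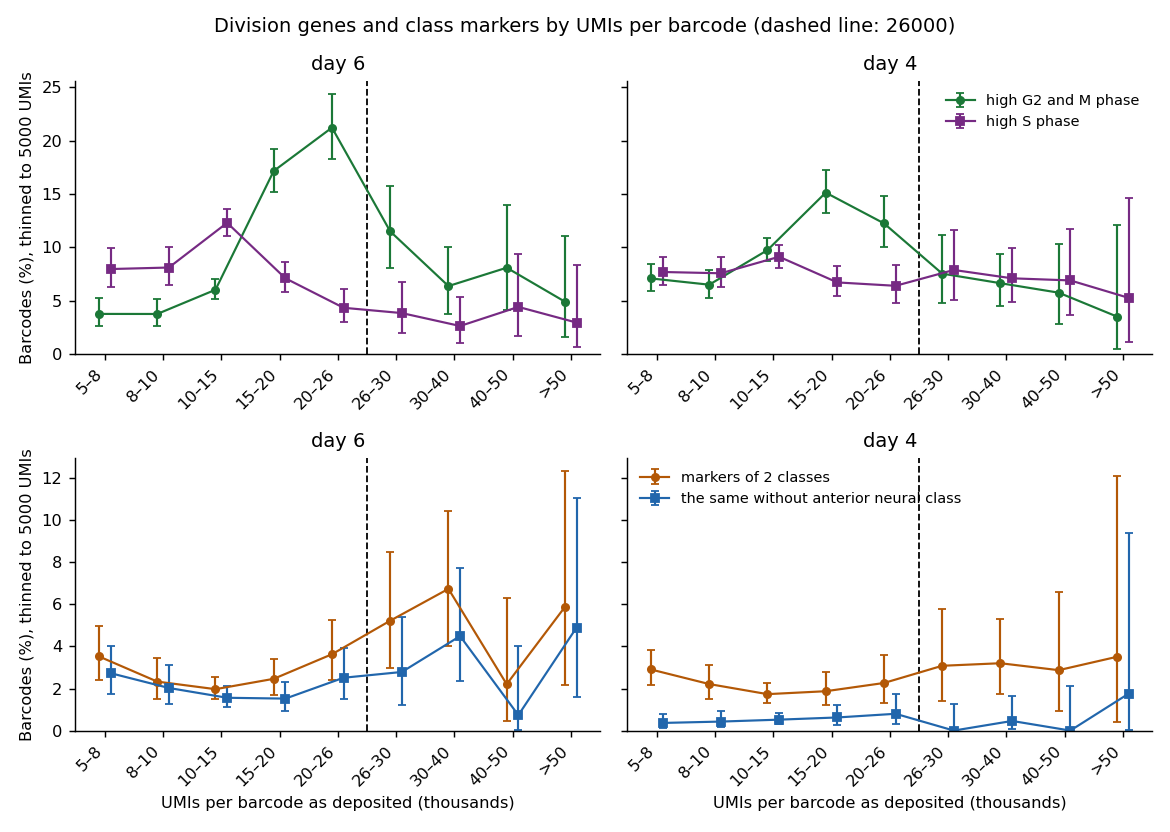
Percent of barcodes with high G2 and M phase or high S phase counts (top) and with markers of 2 classes (bottom), after thinning to 5000 UMIs, by UMIs per barcode as deposited; points are shares with exact 95% intervals, and the dashed line is the limit of 26000. The G2 and M phase share peaks below the limit, at 21.2% between 20000 and 26000 UMIs on day 6 and 15.1% between 15000 and 20000 on day 4, and is lower in every bin above it.

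Across UMI totals the G2 and M phase share had its peak below the limit. On day 6 it was 3.75% between 8000 and 10000 UMIs, 6.02% between 10000 and 15000, 17.2% between 15000 and 20000 and 21.2% (18.3 to 24.4) between 20000 and 26000. Above the limit it was 11.5% (8.05 to 15.8) up to 30000 UMIs, 6.37% (3.75 to 10.0) up to 40000, 8.09% (4.11 to 14.0) up to 50000 and 4.90% (1.61 to 11.1) in the 102 barcodes beyond. On day 4 it peaked at 15.1% (13.2 to 17.2) between 15000 and 20000 UMIs, was 7.53% (4.78 to 11.2) just above the limit, and was 3.51% (0.428 to 12.1) in the 57 barcodes over 50000. The mean of G2 and M phase UMIs per 5000 was 34.7 (SD 15.1) between 10000 and 15000 UMIs on day 6. It was 44.5 (SD 17.3) between 20000 and 26000 and 39.3 (SD 11.1) over 50000, where it stayed above the first value. Ccnb1, the cyclin partner of Cdk1, had the same course on day 6, with 148 CPM between 10000 and 15000 UMIs, 279 CPM between 20000 and 26000 and 192 CPM over 50000. Top2a, which untangles chromosomes, stayed level there, with 291 CPM between 20000 and 26000 UMIs and 290 CPM over 50000.

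High division counts occurred in both the Dppa5a-rich and the eye gene barcodes. On day 6, 10 of 116 Dppa5a-rich barcodes over the limit had them (8.62%), against 47 of 593 in the rest (7.93%), and 37 of 469 with eye genes (7.89%, 5.62 to 10.7), against 410 of 4005 (10.2%, 9.32 to 11.2). Of the barcodes with endoderm genes 0 of 18 over the limit had them, where the exact upper bound is 18.5%, against 7 of 187 in the rest (3.74%, 1.52 to 7.56). The mean in Dppa5a-rich barcodes was 39.3 G2 and M phase UMIs per 5000 over the limit (SD 15.5) and 29.0 in the rest (SD 19.4).

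Barcodes with neither sign were the larger share of both groups, a share that setting high counts at the 90th percentile of the rest largely fixes. On day 6, 689 of 792 (87.0%, 84.5 to 89.3) had neither markers of 2 classes nor high G2 and M phase counts, against 5876 of 6654 (88.3%, 87.5 to 89.1) of the rest. On day 4 it was 869 of 960 (90.5%, 88.5 to 92.3), against 7036 of 7971 (88.3%, 87.5 to 89.0). Those 689 day 6 barcodes had a median of 33119 UMIs and 1794 genes at 5000, and the 37 with markers of 2 classes and no high division counts 32542 UMIs and 1748 genes. These counts do not say how many barcodes held a pair of like cells, a case that marker pairs cannot show.

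The make-up of the barcodes over the limit differed by day. On day 6, 14.6% (12.3 to 17.3) were Dppa5a-rich, against 8.91% (8.24 to 9.62) of the rest, while on day 4 it was 16.3% (14.0 to 18.7) against 21.7% (20.8 to 22.7). Anterior neural genes were found in 47.0% (43.4 to 50.5) over the limit against 37.8% (36.6 to 38.9) on day 6, and in 35.7% (32.7 to 38.9) against 24.8% (23.9 to 25.8) on day 4. Between 20000 and 26000 UMIs, just below the limit, 13.1% (10.7 to 15.8) were Dppa5a-rich on day 6 and 19.4% (16.7 to 22.5) on day 4. Anterior neural genes were found there in 41.6% (37.98 to 45.33) on day 6 and 30.4% (27.09 to 33.79) on day 4. Each of these intervals overlaps the one over the limit, but overlap alone does not show that the shares were equal. The anterior neural share was higher over the limit than in that group on both days. Neural crest genes were found in 6 barcodes over the limit on day 6 (0.758%, 0.279 to 1.64), against 138 (2.07%, 1.74 to 2.45) of the rest, and endoderm genes in 18 (2.27%, 1.35 to 3.57) against 187 (2.81%, 2.43 to 3.24).

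Across genes the profiles over the limit and in the rest were close. On day 6, 2 of 2236 named genes at 50 CPM or more were at least 1.5-fold higher over the limit with an interval that leaves out 1 (0.0894%) and 4 were lower by that size (0.179%). On day 4, 8 of 2098 were higher (0.381%) and 7 lower (0.334%). The central 90% of log2 ratios ran from -0.22 to 0.23 on day 6 and from -0.25 to 0.35 on day 4. Against the rest over 20000 UMIs the counts were 0 higher (0%) and 1 lower (0.0439%) of 2278 on day 6, and 0 higher and 0 lower (0%) of 2125 on day 4. The lower gene was Crabp1. In Dppa5a-poor barcodes alone, 0 genes were higher (0%) and 2 lower (0.0878%) of 2278 on day 6, and 4 higher (0.187%) and 2 lower (0.0936%) of 2137 on day 4. Of the calls not made there, H19 on day 6 (ratio 1.90) and Tdgf1 (0.461) and Hspb1 (0.602) on day 4 kept a ratio past 1.5-fold but averaged under 50 CPM. Among the 1937 named genes at 50 CPM or more on both days, 0 were called the same way and 1, Mt2, opposite ways. With the small shares called on each day, few genes could be called on both. Col4a1, under 50 CPM on average on day 4, was lower by that size on both days (0.575 and 0.659).

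**Figure D3:**
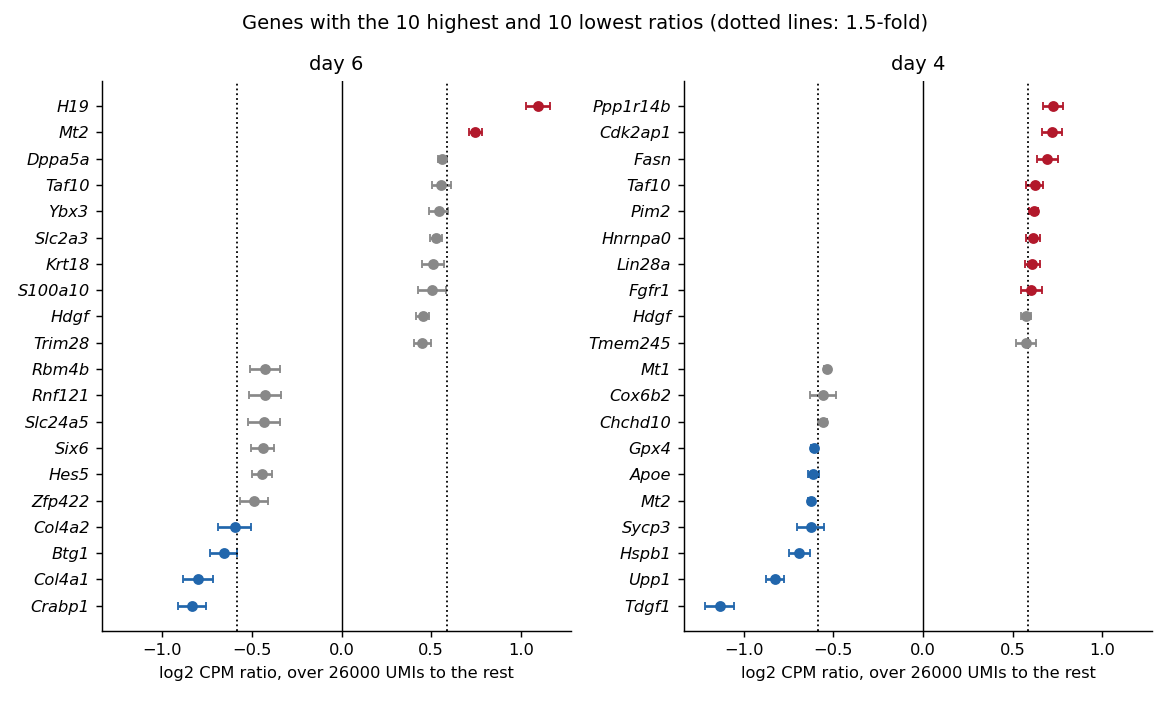
log2 CPM ratio of barcodes over 26000 UMIs to the rest for the genes at both ends of the ranking, 10 at the top and 10 at the bottom of each day, with exact 95% intervals for counting error; red and blue mark genes past 1.5-fold (dotted lines), grey those short of it. H19 (2.13-fold) leads day 6 and Tdgf1 (0.456) is the lowest on day 4.

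H19 and Mt2 were the genes higher over the limit on day 6. H19, an imprinted long noncoding RNA, was at 106 CPM over the limit, against 49.7 CPM in the rest (2.13, 2.04 to 2.23). It was higher in Dppa5a-rich barcodes (426 against 270 CPM, 1.58, 1.48 to 1.68) and in Dppa5a-poor ones (50.8 against 26.7 CPM, 1.90, 1.77 to 2.04). Mt2, a metallothionein that binds zinc, was at 328 CPM over the limit, against 195 CPM (1.68, 1.63 to 1.72). In Dppa5a-rich barcodes Mt2 was at 1774 against 1207 CPM, and in Dppa5a-poor ones at 78.5 against 90.1 CPM (0.871, 0.828 to 0.916), and Dppa5a-rich barcodes were 14.6% of those over the limit, against 8.91% of the rest. On day 4 Mt2 was at 1091 CPM over the limit, against 1679 CPM in the rest (0.650, 0.642 to 0.657). Short of the fold on day 6 were Dppa5a (727 against 493 CPM, 1.48), Taf10, a subunit of TFIID (141 against 95.8 CPM, 1.47), and Slc2a3, a glucose transporter (337 against 234 CPM, 1.44).

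Crabp1, Col4a1, Btg1 and Col4a2 were lower over the limit on day 6. Crabp1, which binds retinoic acid in the cytoplasm, was at 51.1 CPM over the limit, against 91.0 CPM (0.561, 0.531 to 0.593). Btg1, an antiproliferative factor, was at 62.0 against 97.7 CPM (0.634, 0.603 to 0.667). Both were also lower among Dppa5a-poor barcodes alone, with ratios of 0.571 for Crabp1 and 0.645 for Btg1. Col4a1 was at 46.4 against 80.7 CPM (0.575, 0.542 to 0.610) and Col4a2, its partner chain, at 40.2 against 60.7 CPM (0.662, 0.621 to 0.705). Among eye genes Six6 was at 82.3 CPM over the limit, against 111 CPM (0.738, 0.706 to 0.772), and Pax6 at 214 against 246 CPM (0.867, 0.843 to 0.891). The eye field list as a whole did not fall, with a median log2 ratio of -0.001 over 8 measured members on day 6. Of these 1 was higher by 1.5-fold, Hesx1 (1.70), and 0 were lower, beside 0.219% and 0.19% of all genes at 10 CPM or more. Six3, also of that list, had a ratio of 1.08.

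On day 4 the genes higher over the limit were Ppp1r14b, Cdk2ap1, Fasn, Taf10, Pim2, Hnrnpa0, Lin28a and Fgfr1. Pim2, a serine/threonine kinase, was at 504 CPM over the limit, against 329 CPM (1.53, 1.51 to 1.56), and within Dppa5a-rich barcodes at 313 against 152 CPM (2.06, 1.94 to 2.18). Lin28a, which blocks let-7 microRNA maturation, was at 215 against 141 CPM (1.53, 1.48 to 1.57). Fgfr1, a fibroblast growth factor receptor, was at 107 against 70.3 CPM (1.52, 1.46 to 1.58). Fasn, the fatty acid synthase, was at 104 against 64.4 CPM (1.62, 1.55 to 1.68). In Dppa5a-poor barcodes 4 of the 8 kept their size, Cdk2ap1, Taf10, Fasn and Ppp1r14b.

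Lower over the limit on day 4 were Tdgf1, Upp1, Hspb1, Sycp3, Mt2, Apoe and Gpx4. Tdgf1, the Nodal co-receptor Cripto, was at 43.0 CPM over the limit, against 94.4 CPM (0.456, 0.431 to 0.481). Gpx4, which reduces lipid peroxides, was at 904 against 1378 CPM (0.656, 0.648 to 0.664), and Apoe, a lipid carrier, at 300 against 459 CPM (0.654, 0.640 to 0.668). Dppa5a-rich barcodes, fewer over the limit on this day, held most of the Gpx4 transcripts: Gpx4 was at 3342 against 4621 CPM in these and at 422 against 499 CPM outside them, with ratios of 0.723 and 0.845. Tdgf1 was lower in both, at 222 against 379 CPM (0.587, 0.552 to 0.623) and at 7.54 against 16.4 CPM (0.461, 0.397 to 0.533).

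Some of these differences were graded over the whole range of totals. On day 4 Tdgf1 was at 141 CPM between 5000 and 8000 UMIs, 90.1 between 10000 and 15000, 59.6 between 20000 and 26000, 56.8 between 26000 and 30000 and 31.9 over 50000. Pim2 was at 286, 313, 390, 446 and 527 CPM in the same bins. On day 6 Btg1 was at 165, 98.6, 77.5, 70.6 and 43.2 CPM. H19 turned back, with 77.1 CPM between 5000 and 8000 UMIs, 37.2 between 10000 and 15000, 70.9 between 20000 and 26000, 90.9 just above the limit and 127 over 50000. None of these 4 genes showed a larger step at the limit than elsewhere in its range. Crabp1 on day 6 was not graded. It was at 77.6 CPM between 5000 and 8000 UMIs, 79.2 between 10000 and 15000 and 115 between 15000 and 20000. From 89.8 between 20000 and 26000 it fell to 64.3 just above the limit and 34.2 over 50000.

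**Figure D4:**
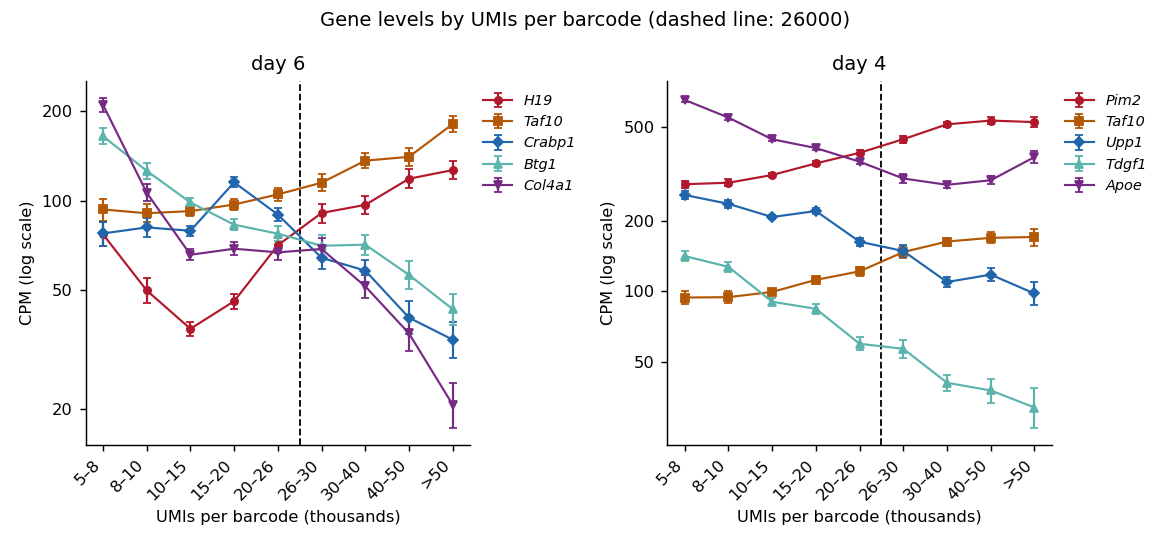
CPM on a log axis by UMIs per barcode for 5 genes on day 6 (left) and 5 on day 4 (right), from counts summed over the barcodes of each bin, with exact Poisson 95% intervals; the dashed line is the limit of 26000. Tdgf1 on day 4 is at 141 CPM in the lowest bin and 31.9 CPM in the highest, and Taf10 on day 6 is at 93.4 and 181 CPM.

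Among the listed gene groups, 4 of 9 measured primitive endoderm genes were lower over the limit on day 6 and 2 of 6 on day 4, and 0 were higher on either day; over all genes at 10 CPM or more 0.19% were lower on day 6 and 0.5% on day 4. On day 6 the median log2 ratio was -0.43: Lama1, a laminin chain, was at 17.8 against 34.0 CPM (0.525, 0.478 to 0.576) and Lamc1 at 21.1 against 32.2 CPM (0.656, 0.600 to 0.716), beside Col4a1 and Col4a2, while Apoe was at 283 against 303 CPM (0.936, 0.913 to 0.959). On day 4 the median was -0.32 and the lower members were Apoe and Col4a1, the second at 14.7 against 22.3 CPM (0.659, 0.597 to 0.726), while Lamc1 was at 15.6 against 17.1 CPM (0.913, 0.827 to 1.01).

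Of the naive pluripotency genes 4 of 9 measured members were lower and 0 higher over the limit on day 4, beside 0.5% and 0.879% of all genes at 10 CPM or more, and the median log2 ratio was -0.54: Tdgf1; Spp1, a secreted phosphoprotein, at 28.9 against 58.1 CPM (0.497, 0.464 to 0.532); Klf2, a naive state transcription factor, at 15.2 against 27.1 CPM (0.560, 0.509 to 0.616); and Dppa4 at 20.9 against 32.8 CPM (0.638, 0.588 to 0.692). On day 6, 0 of 8 passed, with a median of 0.23 that turned to -0.20 against the rest over 20000 UMIs. Formative epiblast genes had medians of 0.34 on day 6 and 0.10 on day 4, with 0 of 10 and 1 of 12, Pim2, higher. Over all genes at 10 CPM or more, 0.219% were higher on day 6 and 0.879% on day 4.

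Anterior neural genes had 2 of 10 members higher on day 6, beside 0.219% of all genes at 10 CPM or more: Hesx1 (26.3 against 15.5 CPM, 1.70, 1.56 to 1.86) and Lhx5 (24.5 against 16.1 CPM, 1.52, 1.39 to 1.67), both homeobox genes of the early forebrain. On day 4, 1 of 6 was higher, beside 0.879% of all genes: Six3 (37.0 against 24.2 CPM, 1.53, 1.43 to 1.64). On day 4 Pax6 was at 8.61 against 4.61 CPM (1.87, 1.61 to 2.17), under the 10 CPM asked of measured list members. Glycolysis genes had medians of 0.18 on day 6 and -0.13 on day 4, with 0 of 16 and 0 of 17 past the fold. Aldoa, an enzyme of the pathway, was at 1251 against 1133 CPM on day 6 (1.10) and at 1246 against 1652 CPM on day 4 (0.755).

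**Figure D5:**
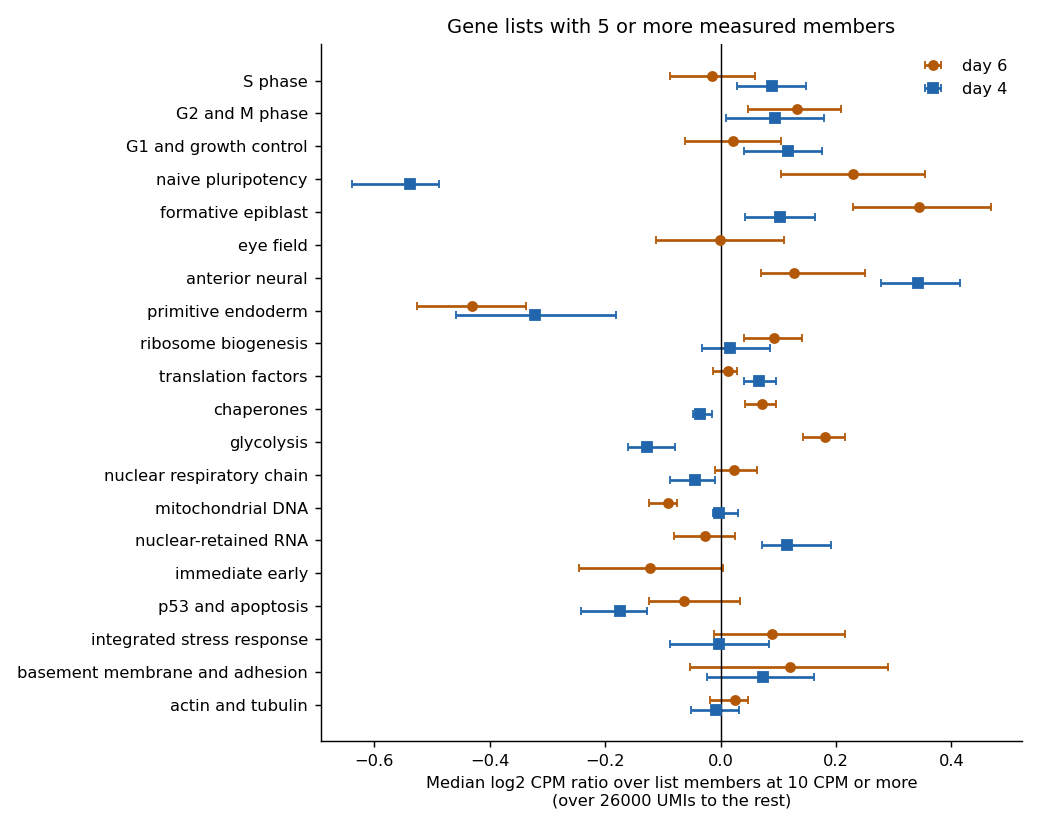
Median log2 CPM ratio of barcodes over 26000 UMIs to the rest over the measured members of each gene list, for day 6 (circles) and day 4 (squares); the bars join the medians of the members' lower and upper interval bounds and cover counting error only. The medians of primitive endoderm genes lie left of 0 on both days (-0.43 and -0.32), and those of naive pluripotency genes lie at 0.23 on day 6 and -0.54 on day 4.

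Lists of cell growth had medians near those over all genes at 10 CPM or more, which were 0.02 on day 6 and 0.04 on day 4. The largest was that of the G1 and growth control list on day 4, at 0.12, against 0.02 on day 6. In that list 0 of 12 members were higher on either day, and on day 4 1 of 12 was lower, Cdkn1a. Ribosome biogenesis genes had medians of 0.09 on day 6 and 0.02 on day 4, and translation factors 0.01 and 0.07, with 0 of 25 and 0 of 20 members past the fold on each day. Over all genes at 10 CPM or more, 0.219% were higher and 0.19% lower on day 6, and 0.879% and 0.5% on day 4. Counts of 0 in lists of this size, here and in the stress lists below, are therefore close to those shares. Per 5000 UMIs, a barcode held a mean of 59.8 ribosome biogenesis UMIs over the limit (SD 13.3), against 54.0 (SD 14.1) in the rest on day 6, and 58.7 (SD 11.9) against 57.4 (SD 13.6) on day 4. Utp20, a processome component, was at 36.0 against 28.1 CPM on day 4 (1.28, 1.2 to 1.37). Among stress lists, 0 of 7 integrated stress response genes passed the fold on day 6 and 0 of 10 on day 4, with medians of 0.09 and -0.002. Asns, the asparagine synthetase, was at 137 against 101 CPM on day 6 (1.36, 1.31 to 1.41), and Psat1, an enzyme of serine synthesis, at 204 against 167 CPM on day 6 (1.22, 1.18 to 1.26) and at 212 against 162 CPM on day 4 (1.31, 1.27 to 1.34). For p53 and apoptosis genes 0 members were higher on either day and 0 of 10 were lower on day 6 and 1 of 11 on day 4, Cdkn1a, a cyclin-dependent kinase inhibitor, at 19.1 against 30.9 CPM (0.618, 0.567 to 0.672).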

How the data were processed

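Single-cell libraries of day 6 and day 4 organoids (1 each) were analysed from the deposited UMI counts, which the authors made with Cell Ranger against mm10; Cell Ranger 2.0.1 and Seurat 2.3.4 are the versions in the submitters' processing notes, and the study's methods name later releases. Each table lists 27998 genes; the tables include the barcodes above the study's UMI limit, and reads of near-identical genes cannot be checked. Counts were summed over barcodes above and at or under 26000 UMIs, separately per day, and divided by total UMIs (CPM). Ratios have exact conditional binomial 95% intervals, shares exact Clopper-Pearson ones, and differences of shares combine both. A gene was called at 1.5-fold with an interval leaving out 1. For shares at equal depth, barcodes were thinned to 5000 UMIs (seed 11). No doublet caller was run. Totals were 117346835 UMIs on day 6 and 132839267 on day 4.

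Named genes were Dppa5a, Pax6, Six6 and Col4a1, the 10 highest and 10 lowest ratios per day at a mean of at least 50 CPM (without gene models lacking a name and without haemoglobin, ribosomal protein or mitochondrial genes), and, from each list, at most 4 genes of 10 CPM or above with the largest ratio. Top2a, Ccnb1 and Sox17 lie outside that rule and were chosen with their values known. The members and the 27 lists were chosen with earlier results of these data known; 441 of 447 listed names were found. Python 3.11.15, NumPy 2.4.6, SciPy 1.17.1 and pandas 2.3.3 were used, and the gene comparison was tested on simulated data. The alternatives tried are in the closing section.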

Additional observations from a re-analysis of the deposited data

Results flagged for a closer look

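Mt2 went opposite ways on the 2 days: its CPM ratio of barcodes over the limit to the rest was 1.68 on day 6 and 0.650 on day 4. The difference between the days was not tested, since each day is 1 library. On day 6 the ratio was 1.47 in Dppa5a-rich and 0.871 in Dppa5a-poor barcodes, and on day 4 it was 0.758 and 0.668.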

How the results depend on the processing

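No paired analysis was possible because each day is 1 library. Of 2732 ratios, medians and differences recomputed under the alternatives, 158 had a sign opposite to the value reported; 8 of these were genes called by size or differences whose interval had left out 0. Set against the rest over 20000 UMIs only, 0 genes were higher and 1 lower on day 6, and 0 higher and 0 lower on day 4; the G2 and M phase median was -0.140 on day 6 and -0.039 on day 4, the S phase median 0.073 on day 6, the difference in high G2 and M phase shares -12.9 and -5.69 points on day 6 and day 4, and the difference in genes at 5000 UMIs -4 and 9 genes. Under that comparison the co-detection differences on day 6 were 3.64 points for Dppa5a with Pax6, 1.34 with Six6 and -0.450 with Col4a1, and on day 4 1.91 with Col4a1. Thinning to 5000 UMIs gave 4 genes higher on day 6, 14 higher and 11 lower on day 4, and a G2 and M phase median of 0.24 on day 6. Its co-detection differences on day 6 were 1.94 points for Dppa5a with Pax6, 0.502 with Six6 and -0.0207 with Col4a1, and -5.52 for Pax6 with Six6; on day 4 they were 0.0076, -0.100 and 0.192 for Dppa5a with Pax6, Six6 and Col4a1. At 10000 UMIs they were 2.47, 0.844 and 0.162 on day 6 and -4.35 for Pax6 with Six6, and on day 4 -0.282 for Dppa5a with Pax6 and -0.0563 with Col4a1; the high G2 and M phase differences were -3.35 on day 6 and -6.85 on day 4, that of markers of 2 classes -0.0817 on day 4, and those in genes per barcode 52 and 95.

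Weighting each barcode equally gave a G2 and M phase median of 0.24 on day 6 and 13 genes lower on day 4. A limit of 30000 UMIs gave 6 genes higher on day 6. The wider gene filter gave 14 higher and 13 lower on day 6, and 57 and 30 on day 4. Totals without mitochondrial and ribosomal protein genes gave 15 higher and 11 lower on day 4, where more genes then reach 50 CPM. Dppa5a-poor barcodes alone gave 0 higher and 2 lower on day 6, with Mt2 at a log2 ratio of -0.20, and 4 and 2 on day 4. Without barcodes of a class pair 2 genes were lower on day 6. Without the anterior neural class, an alternative chosen after seeing the data, the difference in markers of 2 classes was -0.202 points on day 4. Beyond what is said of each comparison, the cause was not tested. Thinning leaves few UMIs of genes such as Six6 per barcode, so counts of pairs under 10 limit the shares.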

Other observations

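Among members of the gene lists not given above, Krt8, a simple epithelial keratin, was at 39 CPM over the limit and 24.2 CPM in the rest on day 6 (1.61, 1.5 to 1.73), and at 25.4 and 27.2 CPM on day 4 (0.933, 0.863 to 1.01). Sox3, a neural progenitor factor of the anterior neural list, was at 12.4 and 7.26 CPM on day 4 (1.71, 1.52 to 1.94), and at 29.1 and 20.6 CPM on day 6 (1.42, 1.30 to 1.54). On day 4 it averaged under 10 CPM and is not among the members counted as measured. Mirg, a noncoding RNA of an imprinted cluster, was at 47.0 and 30.5 CPM on day 4 (1.54, 1.45 to 1.64). Pmaip1, of the p53 and apoptosis list, which encodes the apoptosis inducer Noxa, was at 3.46 and 5.71 CPM on day 6 (0.607, 0.485 to 0.752). It averaged under 10 CPM on that day, so it is not among the members counted as measured there. Across 1937 genes measured on both days the log2 ratios had a Pearson r of 0.48, a description over genes, which are not independent replicates.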
